A study of Caenorhabditis elegans with 2 samples.

Results

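The 46 genes described here act in the piRNA, siRNA and miRNA pathways of Caenorhabditis elegans, and the question was where the chromatin protein OEF-1 lay on them. They were taken from a written list of pathway genes, and all 46 matched a gene symbol among the 19973 protein-coding genes of the nuclear chromosomes. By role the list holds 9 piRNA factors, 13 Argonautes, 7 mutator genes, 6 nuclear RNAi genes, 5 genes of the RNA-dependent RNA polymerase module, 6 genes of double-stranded RNA processing and exogenous RNAi, 1 tailing enzyme and 2 genes of double-stranded RNA transport. Of these, prg-1, hrde-1 and nrde-3 stand in more than 1 class.

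OEF-1, the product of F49E8.2, was mapped by chromatin immunoprecipitation and sequencing (ChIP-seq) with an antibody against GFP, after sonication of chromatin from whole animals. The only group held 2 samples of strain OP383, genotype unc-119(tm4063) III; wgIs383, which stably carries an inserted copy of oef-1 ending in a C-terminal GFP-FLAG tag. Hermaphrodite L4 larvae were collected 52 h after synchronization as starved L1 larvae, and the labels number the samples as biological replicates 3 and 4. Both samples share the unc-119 allele and the transgene, no untagged strain was analysed here, and a site occupied in few cells and one weakly occupied in many cannot be told apart in whole animals.

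Small RNAs are short guides carried by Argonaute proteins. The piRNA Argonaute PRG-1 and the primary siRNA Argonautes find a transcript, RNA-dependent RNA polymerases copy it into secondary small RNAs in perinuclear mutator foci, and the worm-specific (WAGO) Argonautes carry these to silence the transcript in the cytoplasm or, through HRDE-1 and NRDE-3, its gene in the nucleus. CSR-1 takes a separate set of secondary small RNAs that match genes expressed in the germline. OEF-1 is known as a germline chromatin protein, and most of the pathway's inherited silencing takes place in the germline.

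A member was called bound when its annotated 5′ end had a peak summit no more than 500 bp away in either direction. Coordinates are 1-based on ce11, the same assembly as WBcel235. All bound members but ekl-1 are shown by the 101 bases centred on their summit in the optimal list, the authors' list of reproducible peaks, because the peaks at the 5′ ends are highest there. The optimal summit before the short csr-1 transcript is shown with them. The bases are those of the RefSeq WBcel235 genome, on each gene's own strand and 5′ to 3′. Capitals mark any match, on either strand, to the hexamers GGCGCA and ACGCGC and GCGCCA and GCGCTC, or to the octamer CTGTTTCA. ekl-1 is given by its values only.
hrde-1, chrIII:4176335-4176435, minus strand: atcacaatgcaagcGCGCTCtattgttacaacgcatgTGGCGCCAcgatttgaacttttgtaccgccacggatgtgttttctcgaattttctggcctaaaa
mut-15, chrV:15002237-15002337, plus strand: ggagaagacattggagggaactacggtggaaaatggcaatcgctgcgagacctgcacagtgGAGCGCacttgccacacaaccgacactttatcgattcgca
prde-1, chrV:15538079-15538179, plus strand: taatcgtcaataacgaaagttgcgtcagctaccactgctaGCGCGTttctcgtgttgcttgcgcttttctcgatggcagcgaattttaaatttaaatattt
tofu-6, chrII:5421097-5421197, plus strand: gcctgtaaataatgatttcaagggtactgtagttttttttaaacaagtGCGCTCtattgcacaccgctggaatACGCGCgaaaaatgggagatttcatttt
csr-1, short transcript, chrIV:7958372-7958472, plus strand: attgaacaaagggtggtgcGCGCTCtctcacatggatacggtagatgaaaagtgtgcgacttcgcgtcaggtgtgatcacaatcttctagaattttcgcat

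Of the 46 genes, 5 were bound at their 5′ ends in the optimal list, which is 10.9% beside 3.87% of all coding genes. They were hrde-1, the nuclear Argonaute of germline inheritance, mut-15, a component of mutator foci, ekl-1, a partner of the RNA polymerases, and the piRNA biogenesis genes prde-1 and tofu-6. In a list of the same length, the 1339 strongest candidate peaks, replicate 3 alone gave 5 members (background 3.81%) and replicate 4 alone gave 4 (8.70%; background 3.95%). The 4 genes hrde-1, mut-15, prde-1 and tofu-6 were bound in the optimal list and in the strongest 1339 of each replicate, where the background was 2.52%. The strongest 1339 pooled peaks are the optimal list itself, and that list was made from both replicates. The lists differed in ekl-1, which ranked below 1339 in each replicate alone, and in wago-4, which passed in replicate 3.

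hrde-1 held the strongest 5′ peak of the set. The gene (WBGene00007624, chrIII:4172337-4176159, minus strand) had its optimal summit at position 4176385, 226 bp upstream of the 5′ end, in a peak from 4176301 to 4176494. Its signal, the peak's strength as the authors' files give it on a scale that is not stated, was 149 in the optimal list, where it ranked 304 of 1339. In replicate 3 the signal was 104 at rank 340 and in replicate 4 it was 43.7 at rank 305. The gene thus ranked alike in these lists. Signals were compared only within a list, and those of the nuclear optimal peaks ran from 74.0 to 631. The replicate summits lay 14 bp apart.

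The mut-15 summit (chrV:15002287) lay 256 bp upstream of the 5′ end at 15002543, with a signal of 102 and rank 696 in the optimal list. Its signal was 66.6 at rank 917 in replicate 3 and 33.5 at rank 602 in replicate 4. The replicate summits were 93 bp apart, the widest gap among the 5 bound genes.

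The ekl-1 summit (chrI:7095048) lay farthest from its gene, 438 bp upstream of the 5′ end at 7095486. Its optimal signal was 75.1 at rank 1302, close to the end of that list. In replicate 3 it had a signal of 54.3 and rank 1352, and in replicate 4 a signal of 19.1 and rank 2334. EKL-1 is a Tudor domain protein that works with the RNA polymerases and the helicase DRH-3. Its peak was the weakest of the 5 in the optimal list, and its call came from both replicates pooled, not from either replicate's strongest 1339.

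prde-1, needed for transcription of piRNA precursors, had its summit at chrV:15538129, 115 bp upstream of the 5′ end at 15538244. The optimal signal was 104 at rank 669. Replicate 3 gave 77.2 at rank 655 and replicate 4 gave 30.4 at rank 762, with summits 10 bp apart. tofu-6, whose RNA-binding product belongs to a complex that processes piRNA precursors, had its summit at chrII:5421147, 101 bp upstream of the 5′ end at 5421248. Its signal was 96.9 at rank 785 in the optimal list, 64.3 at rank 975 in replicate 3 and 29.6 at rank 807 in replicate 4. These were the closest summits to a 5′ end, and both genes stayed bound when 200 bp was used in place of 500 bp (background 1.89%). The same 5 members were bound when distance was taken from the most upstream start codon (background 3.74%), when any base of the peak counted in place of the summit (4.41%), and without summits at structural RNA genes (3.56%).

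All 5 summits lay upstream of the gene they were assigned to, at a median distance of 226 bp, and none lay in an annotated exon. Among all 772 bound coding genes, 83.0% had the summit upstream, at a median of 183 bp. No structural or other noncoding RNA gene lay within 250 bp of any of the 5 summits.

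Of the 5 peaks, 3 were shared with a second gene that starts on the opposite strand, and in each the other gene's 5′ end was the nearer. The hrde-1 summit lay 55 bp upstream of C16C10.13, whose 5′ end is 281 bp from that of hrde-1. The mut-15 summit lay 64 bp upstream of fib-1, which encodes the nucleolar protein fibrillarin, and the 5′ ends are 320 bp apart. The ekl-1 summit lay 325 bp upstream of prpf-4, named for pre-mRNA processing, across a gap of 763 bp. Peak lists alone do not assign such a summit to either gene.

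The other 2 peaks lay in short gaps between genes read in the same direction. The prde-1 summit lay 70 bp past the 3′ end of F21A3.4, in a gap of 184 bp. The tofu-6 summit lay 54 bp past the 3′ end of EEED8.15, in a gap of 154 bp. Each was nearer to that 3′ end than to the member's 5′ end, which was 115 bp away for prde-1 and 101 bp for tofu-6. Here too, peak lists alone do not assign the summit to either gene. With each summit given only to its nearest coding 5′ end, prde-1 and tofu-6 were the 2 members left, beside 3.08% of coding genes.

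**Figure D1:**
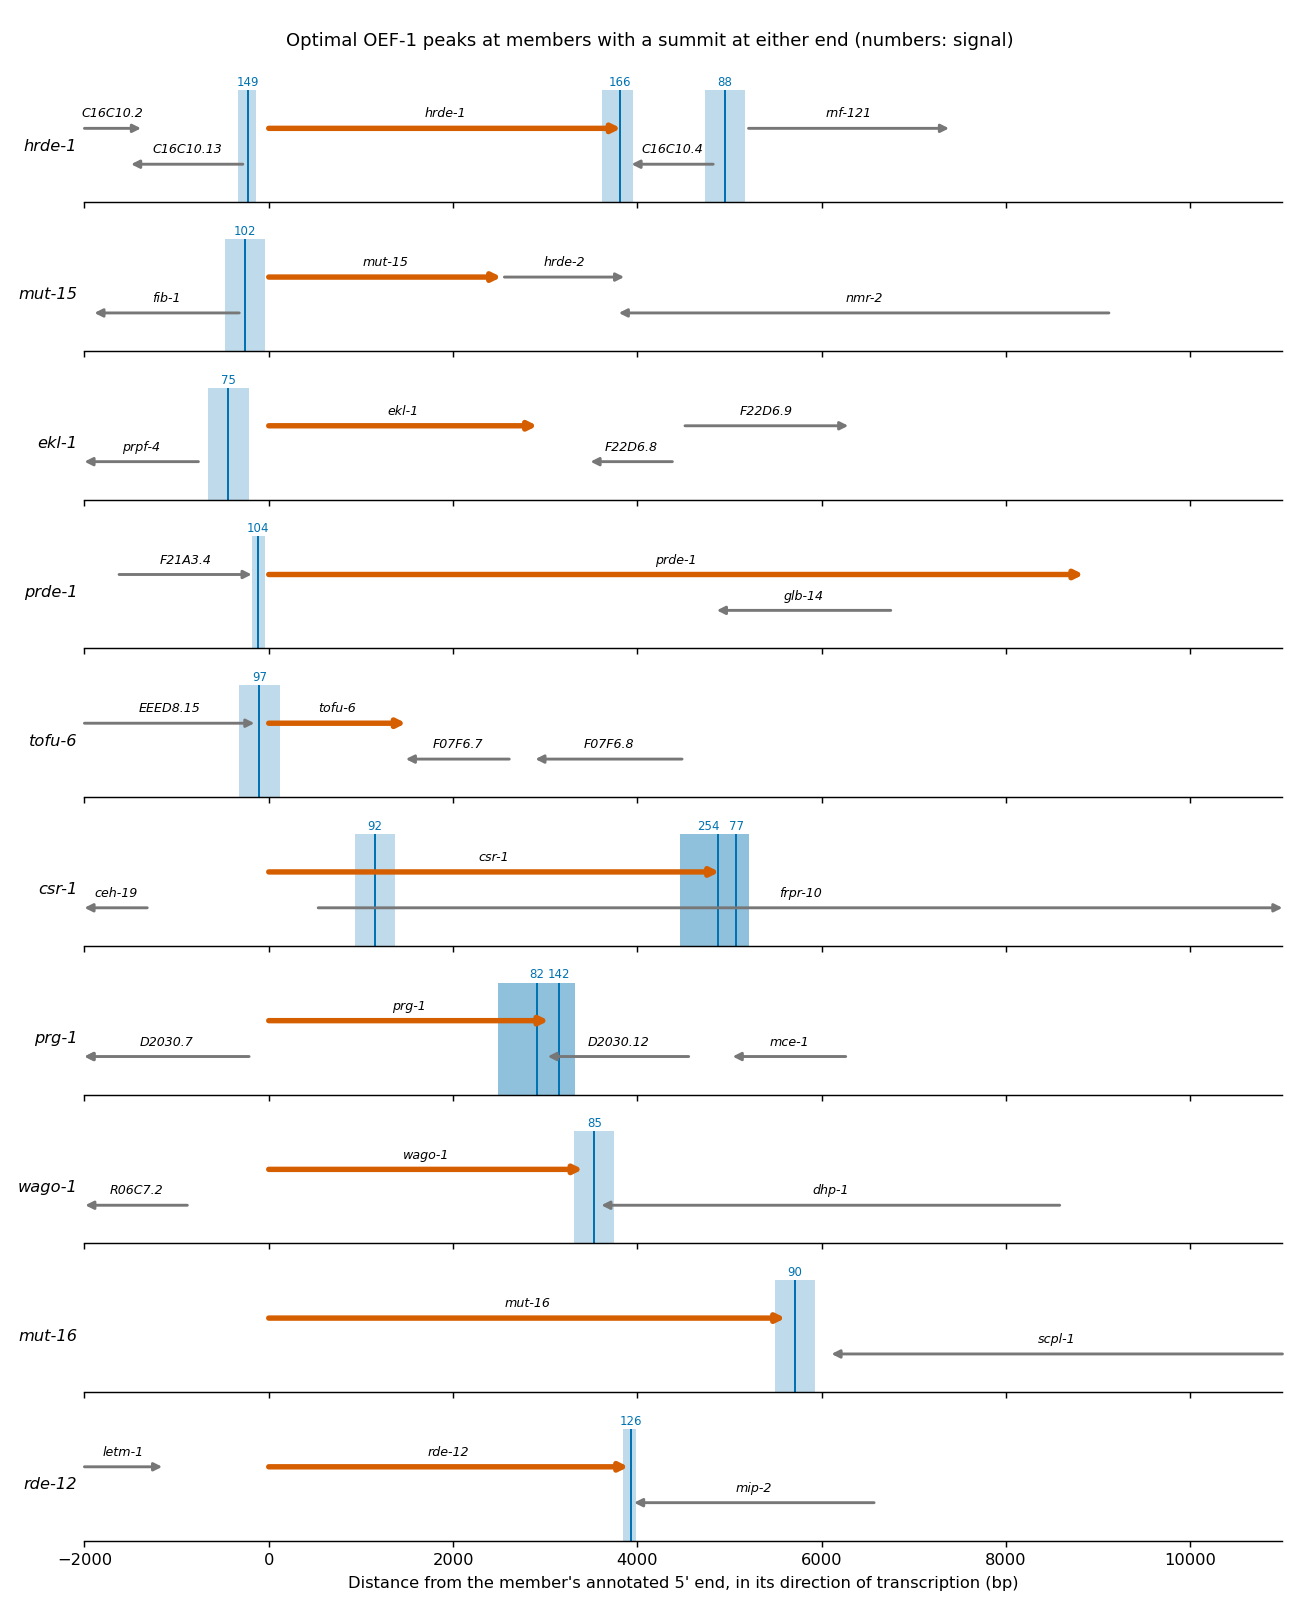
Genes (arrows, in the direction of transcription) and optimal OEF-1 peaks (shaded, darker where a peak is listed with more than 1 summit, with a line at each summit and its signal above) around the 10 members with a summit at either end, by distance in bp from the member's annotated 5′ end. The members are in orange and other coding genes in grey, with frpr-10 drawn below csr-1 although both are read in the same direction. The hrde-1, mut-15 and ekl-1 peaks sit between diverging genes, and csr-1, prg-1, wago-1, mut-16, rde-12 and hrde-1 have peaks at the 3′ end.

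The printed windows show what the summits hold in sequence. The hexamer GCGCTC, a word added after the sequences were seen, stands in those of hrde-1, mut-15, tofu-6 and csr-1, against 8.88% of the 1318 nuclear summit windows and 399 of 19973 windows of the same length centred 150 bp upstream of coding 5′ ends. ACGCGC stands in the prde-1, tofu-6 and ekl-1 windows, with shares of 10.9% at summits and 2.54% in promoter windows. GCGCCA stands in the hrde-1 window, within the palindrome TGGCGCCA, and in the ekl-1 window, with shares of 11.2% and 1.95%. Neither GGCGCA, present in 185 summit windows and 2.27% of promoter windows, nor CTGTTTCA (0.379% and 0.771%) was in any of them. GGCGCA and both ACGCGC and GCGCCA were found at these same summits by an earlier analysis, so their presence supports nothing further. GCGCTC was added after these windows were seen, so its presence in them was in part fixed by that choice and supports nothing further. Summit windows had a median GC content of 44.6%, against 34.2% for coding promoters from 250 bases before to 50 after the 5′ end. Whether GC content alone gives the higher shares of the hexamers at summits was not tested.

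The longest words that windows of different members shared had 11 letters. hrde-1 and tofu-6 shared GCGCTCTATTG, which stood in 10 summit windows (0.759%) and 14 promoter windows (0.0701%). mut-15 and tofu-6 shared GAGCGCACTTG, which stood in 11 summit windows (0.835%) and 25 promoter windows (0.125%). Each word was picked because summit windows share it, and those windows are among the ones counted, so its share at summits is in part fixed by that choice. Both words hold GCGCTC or its reverse complement, and tofu-6 carries them as overlapping matches at 1 place on opposite strands. GC content was 45.5% for hrde-1, 53.5% for mut-15, 40.6% for prde-1, 38.6% for tofu-6, 35.6% for ekl-1 and 46.5% for the csr-1 window, beside a median of 44.6% at all nuclear summits.

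The piRNA factors had 2 of 9 genes bound in the optimal list, prde-1 and tofu-6, beside 3.87% of all coding genes. Class counts this small do not rank the classes. PRDE-1 works with SNPC-4 and TOFU-5 where piRNA precursors are transcribed, and those genes were weak: snpc-4 had only a pooled candidate at rank 26446 of 30000, and tofu-5 had candidates at rank 14350 in the pooled list, 29857 in replicate 3 and 14721 in replicate 4. By design, a candidate list reaches down into weak peaks and background, and 33.6% of coding genes had a summit in the pooled one. All 9 piRNA factors had such a summit, as did 8 in replicate 3 (background 34.0%) and 5 in replicate 4 (background 28.9%). pid-1 ranked 3453 in the pooled list, 2530 in replicate 3 and 16757 in replicate 4, and pid-2 ranked 6674 in the pooled list and 2222 in replicate 3, with none in replicate 4. The enzymes that finish piRNA 3′ ends, the trimmer parn-1 (rank 16840) and the methyltransferase henn-1 (rank 20989), had pooled and replicate 3 candidates only.

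Among the 13 Argonautes, hrde-1 was the only one bound at its 5′ end in the optimal list (background 3.87%). wago-4, a germline Argonaute needed for inherited RNAi, was the next in the pooled list. Its summit 177 bp upstream had a pooled signal of 59.6 at rank 1885, its replicate 3 signal of 55.3 at rank 1311 was inside the strongest 1339, and replicate 4 held only a summit 52 bp downstream with a signal of 9.06 at rank 15604. csr-1 had a summit 87 bp upstream at rank 3836 in the pooled list (signal 39.5) and rank 3235 in replicate 3, and none in replicate 4. The piRNA Argonaute prg-1 had summits at rank 8197 in the pooled list and 6378 in replicate 3, both 394 bp downstream in an intron, and at rank 4189 in replicate 4, 252 bp upstream and 39 bp from the 5′ end of D2030.7.

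The other Argonautes had weak 5′ candidates or none. alg-4, which acts in spermatogenesis, ranked 8446 in the pooled list and 5320 in replicate 3, and its paralogue alg-3 ranked 23191 in the pooled list alone. rde-1, the Argonaute of exogenous RNAi, ranked 25902 in the pooled list alone, and alg-5 had only a replicate 3 candidate at rank 27752. wago-1, ergo-1, nrde-3 and the miRNA Argonautes alg-1 and alg-2 had no summit within 500 bp of the 5′ end in any list.

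Of the 7 mutator genes, only mut-15 was bound in the optimal list (background 3.87%). Among the 7, 6 had a candidate summit in each of the 3 whole lists, as did 18.5% of coding genes. rde-8, which encodes an endonuclease, came nearest to the threshold of the others, with ranks of 2926 in the pooled list, 4539 in replicate 3 and 2555 in replicate 4. Its pooled summit lay 216 bp upstream of rde-8 and 15 bp from the 5′ end of ZC477.3. The exonuclease gene mut-7 ranked 3732 in the pooled list, with a summit 387 bp upstream and only 352 bp from the 5′ end of eif-2Balpha. In the same list mut-16, the scaffold of the foci, ranked 6787, the nucleotidyltransferase gene mut-2 ranked 16432 and rde-2 ranked 29752. mut-14, an RNA helicase gene, had no summit at its 5′ end in any list.

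The nuclear RNAi genes share hrde-1 and nrde-3 with the Argonautes, and hrde-1 was their 1 bound gene of 6 (background 3.87%). nrde-2, which acts with nuclear Argonautes on nascent transcripts, had a summit 473 bp downstream, inside its coding sequence, at rank 1936 in the pooled list and 1738 in replicate 3, and none in replicate 4. hrde-2, which helps HRDE-1 receive its small RNAs, ranked 3431 in the pooled list, 2482 in replicate 3 and 22820 in replicate 4. nrde-4 ranked 6766 in the pooled list and 5093 in replicate 3, and nrde-1 had only a replicate 3 candidate at rank 16921. In replicate 4, then, hrde-1 and hrde-2 were the only genes of this class with a 5′ candidate.

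In the polymerase module, ekl-1 was the 1 bound gene of 5 (background 3.87%), and the replicates disagreed on the polymerases themselves. ego-1, the germline polymerase, ranked 3363 in the pooled list and 2376 in replicate 3, and had no summit in replicate 4. rrf-1 had none in replicate 3 and ranked 1569 in replicate 4, 305 bp upstream, with a pooled rank of 5584. rrf-3, which makes the ERGO-1 class of small RNAs, ranked 24893 in the pooled list and 12439 in replicate 3. The helicase gene drh-3 had an intronic summit in each list, at rank 11269 in the pooled list.

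None of the 6 genes of double-stranded RNA processing was bound in the optimal list (background 3.87%). rde-10, a factor of secondary siRNA production, was close at rank 1917 in the pooled list and 2054 in replicate 3, where the summit lay 48 bp and 51 bp upstream, and ranked 4628 in replicate 4. The pooled rde-10 summit also lay 113 bp from the 5′ end of rnp-6. eri-1, an exonuclease gene, ranked 2417 in the pooled list, 1625 in replicate 3 and 18388 in replicate 4. The reverse held for rde-4, which encodes the partner of Dicer in RNA binding and ranked 1599 in replicate 4 but 18449 in replicate 3, and for the helicase gene rde-12, at rank 1491 in replicate 4 with none in replicate 3. The replicate 4 summit of rde-4 lay 89 bp upstream and 207 bp from the 5′ end of cox-14. rde-11 ranked 13291 in the pooled list. dcr-1, the Dicer gene, had no 5′ summit in any list.

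cid-1, a nucleotidyltransferase gene of the CSR-1 pathway, had a summit inside its first 200 bp in each list, at rank 3201 in the pooled list, 5254 in replicate 3 and 5290 in replicate 4. The transport genes were weak, with pooled ranks of 13088 for the channel gene sid-1 and 15336 for sid-2, the gut importer. Among the weaker candidates, the pooled summits of tofu-5, rde-1, alg-3 and sid-1 also lay within 500 bp of another coding gene's 5′ end. Counted over all 46, 7 members (15.2%) had no 5′ summit in any of the 3 whole lists, against 54.4% of coding genes, and 21 (45.7%) had 1 in all 3, against 18.5%.

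**Figure D2:**
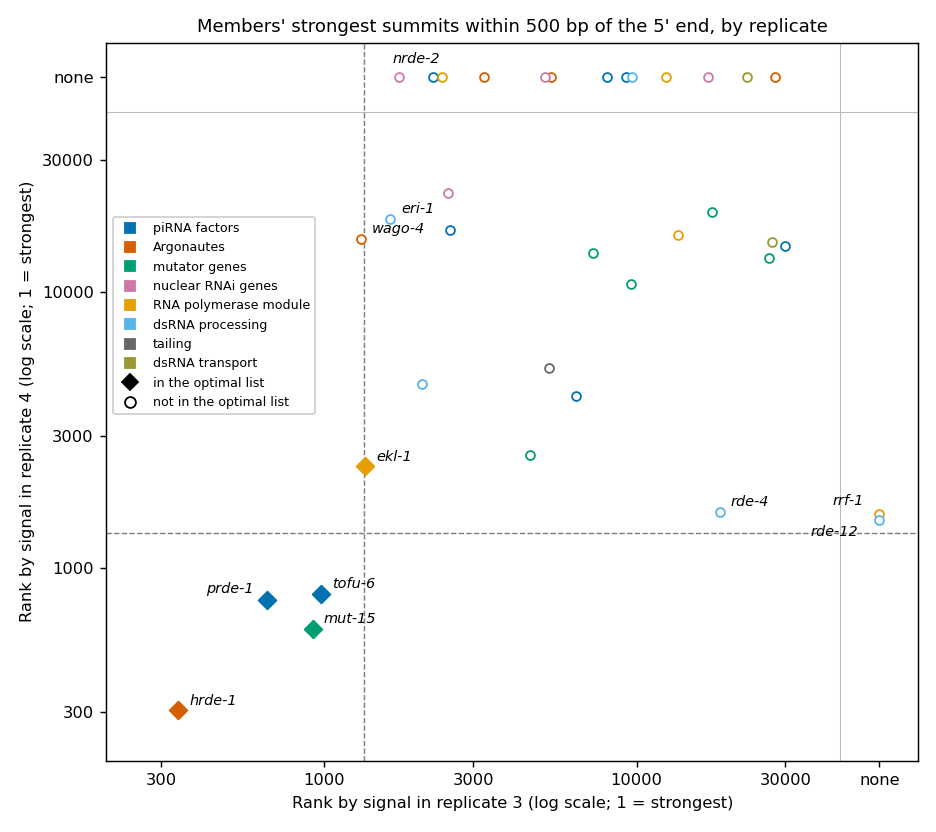
Rank by signal of each member's strongest summit within 500 bp of the 5′ end in replicate 3 (horizontal, log scale) and replicate 4 (vertical, log scale), coloured by class, with filled diamonds for members in the optimal list and dashed lines at rank 1339. hrde-1, mut-15, prde-1 and tofu-6 lie inside both lines, ekl-1 outside both, and 13 members with a replicate 3 summit sit at "none" for replicate 4.

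The replicates differed in how many members they held. Of the 46, 21 had a 5′ summit in both whole replicate lists (45.7%, against 19.4% of coding genes), 13 in replicate 3 alone (28.3%, against 14.6%), 2 in replicate 4 alone (4.35%, against 9.45%) and 10 in neither (21.7%, against 56.5%). The 2 in replicate 4 alone were rrf-1 and rde-12. Replicate 3 had 30000 candidates and replicate 4 had 23600, and the depth behind either is unknown. At equal lengths of 5000 peaks, replicate 3 held 15 members (32.6%, background 11.5%) and replicate 4 held 11 (23.9%, background 10.6%). At 10000 peaks the gap was wider, with 24 members in replicate 3 (52.2%, background 17.9%) and 12 in replicate 4 (26.1%, background 16.7%).

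Going down the pooled list, the share of members was below that of all coding genes at 250 peaks, which held 0 members (background 0.751%), and above it at the other depths given here. The strongest 500 peaks held 1 member (2.17%, background 1.53%), the strongest 2000 held 8 (17.4%, background 5.67%) and the strongest 3000 held 10 (21.7%, background 8.21%). The strongest 10000 held 23 of 46 (background 18.2%), where replicate 4 alone held 12, and the whole list held 37 (80.4%, background 33.6%). The members added between ranks 1339 and 2000 were wago-4, rde-10 and nrde-2. The members were chosen with earlier results of these data known, so their share was set beside the background without a test.

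**Figure D3:**
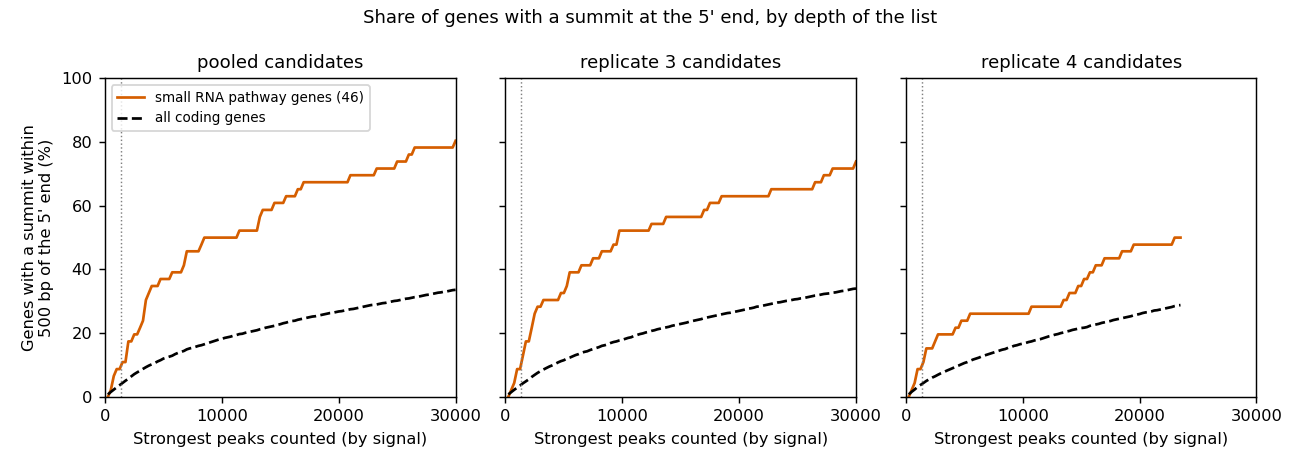
Percent of genes with a summit within 500 bp of the 5′ end among the strongest peaks of each candidate list, by the number of peaks taken (linear scale, dotted line at 1339), for the 46 members and for all 19973 coding genes. In the pooled list the members go from 0 at 250 peaks and 2.17% at 500 peaks to 80.4% at 30000, and coding genes from 0.751% and 1.53% to 33.6%.

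Some unbound members had an optimal peak nearby. alg-5, a germline miRNA Argonaute, starts 286 bp after the histone gene his-68 on the same strand, and an optimal summit with a signal of 458 and rank 26 lay 830 bp upstream of alg-5 and 160 bp from the his-68 5′ end. nrde-2 had an optimal summit 925 bp upstream with a signal of 76.4 at rank 1250, 428 bp from the 5′ end of atad-3. These are the genes that a distance of 1000 bp added, which gave 7 members beside 5.28% of coding genes.

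Genes in runs gave a similar picture. A member whose 5′ end lay within 500 bp of the end of a gene on the same strand was counted as operon-like, and 12 of 46 were (26.1%, against 18.7% of coding genes). Of the 12, prde-1 and tofu-6 were bound themselves, 16.7% beside 5.47% of all operon-like coding genes. In 3 more, alg-5, cid-1 and hrde-2, the first gene of the run was bound and the member was not, which held for 6.59% of all operon-like coding genes. cid-1 follows emb-1 by 112 bp, and an optimal summit with a signal of 164 at rank 232 lay 34 bp from the 5′ end of K10D2.5, which precedes emb-1. hrde-2 follows mut-15 by 32 bp, and its nearest optimal summit, 2813 bp upstream, was the mut-15 and fib-1 peak.

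By chromosome, no more than 2 members were bound on any. Chromosome I held 14 members and 1 bound, beside 6.53% of its coding genes, and chromosome V held 9 members and 2 bound, beside 2.58%. Chromosome III held 9 members and 1 bound (6.06% of coding genes), chromosome II held 6 and 1 bound (3.91%), and chromosome IV held 6 with 0 bound (4.60%). On X, where 0.330% of coding genes were bound, the members were alg-1, a miRNA Argonaute, and nrde-3, the somatic nuclear Argonaute. The optimal summits nearest to their 5′ ends lay 66937 bp and 18949 bp away, each beside a tRNA gene.

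csr-1 had an optimal peak that the rule on the gene's outermost 5′ end did not count. Its short transcript starts at chrIV:7958613, 1346 bp downstream of the gene's 5′ end, and the summit at 7958422 lay 191 bp upstream of that start with a signal of 92.0 at rank 878. Replicate 3 had it with a signal of 68.8 at rank 860. Replicate 4 had no summit there, only 1 at rank 22172 with a signal of 7.44, 491 bp downstream of the same start. The peak lies in introns of csr-1 and of frpr-10, a gene that overlaps csr-1 on the same strand. With the 5′ end of any transcript, 6 members were bound, beside 4.17% of coding genes.

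**Figure D4:**
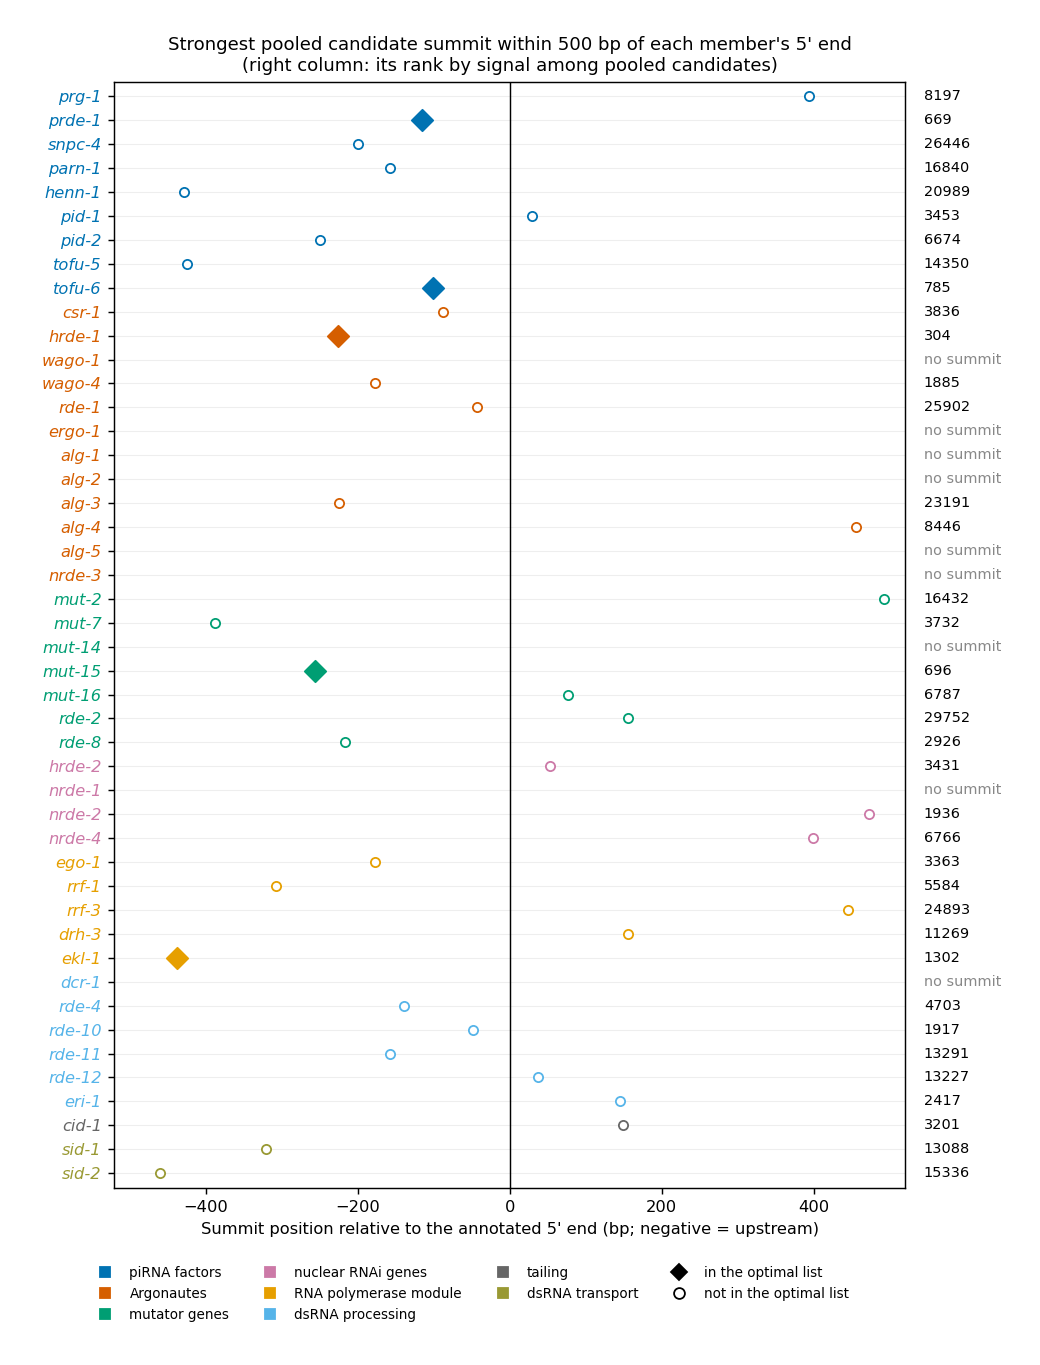
Distance in bp from the annotated 5′ end to each member's strongest summit within 500 bp, in the pooled list, coloured by class, with negative values upstream, filled diamonds for summits in the optimal list and the rank by signal at the right. The 5 optimal summits all lie upstream, from 101 to 438 bp, and of all 37 members with a pooled summit 23 have it upstream (62.2%, against 56.8% of the coding genes with one) and 14 downstream.

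The 6 members prg-1, csr-1, hrde-1, wago-1, mut-16 and rde-12 had an optimal summit at their 3′ end. This was counted after the data were seen, as a summit within 150 bp of the annotated 3′ end with no coding 5′ end within 500 bp. This is 13.0% of the 46, beside 0.911% of coding genes (182 of 19973). The background depends on the rule. With 500 bp in place of 150 bp, the same 6 members stood beside 399 coding genes. When any summit within 150 bp counted, they stood beside 310 (1.55%). Among the 6, 4 are Argonaute genes, of CSR-1, PRG-1, HRDE-1 and WAGO-1, and only hrde-1 among them was also bound at its 5′ end. Argonautes make up 13 of the 46 members, and this grouping was seen only after the count.

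csr-1 had the strongest of these. Its summit at chrIV:7962143, 14 bp inside the 3′ end, had a signal of 254 at rank 75 in the optimal list, 186 at rank 72 in replicate 3 and 68.9 at rank 88 in replicate 4. All 3 lists placed it among their strongest 100 peaks. The summit also lies in an intron of frpr-10, which overlaps csr-1 on the same strand. hrde-1 had a summit at chrIII:4172351, also 14 bp inside, with 166 at rank 223, 124 at rank 214 and 40.5 at rank 371 in the same order of lists. Its 3′ peak was stronger than its 5′ peak in the optimal list and in replicate 3. In replicate 4 the order was reversed, with 43.7 at rank 305 for the 5′ peak.

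prg-1 had its summit at chrI:7585218, 111 bp past the 3′ end, with a signal of 142 at rank 342 in the optimal list and 125 at rank 206 in replicate 3, but 18.4 at rank 2560 in replicate 4. A second summit of the same peak, with a signal of 82.2 at rank 1084, lay in its 3′ untranslated region. The rde-12 summit at chrV:13669320, 28 bp past its 3′ end, had 126 at rank 455 in the optimal list and 104 at rank 347 in replicate 3, whose summit was 1 bp away. The strongest replicate 4 summit within 200 bp of the optimal one, with 32.6 at rank 651, lay 158 bp from it and did not meet the 3′ rule. The optimal summit lay 33 bp from the 3′ end of mip-2, a germ granule gene read towards rde-12.

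mut-16 (chrI:10085869, 104 bp past) had signals of 89.5 at rank 926, 61.4 at rank 1073 and 32.1 at rank 674 in the optimal list and replicates 3 and 4. wago-1 (chrI:7238917, 125 bp past) had 84.7 at rank 1022 in the optimal list. The replicate 3 summit, with 76.3 at rank 675, lay 30 bp from it and beyond 150 bp of the 3′ end, and the replicate 4 summit, with 19.1 at rank 2331, lay 166 bp from it. At the same distance and list length, replicate 3 alone called 5 members, without wago-1 (background 0.916%), whereas replicate 4 alone called 3, csr-1, hrde-1 and mut-16 (background 0.811%).

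Of the 6 peaks, 5, all but that of csr-1, lay where a gene on the opposite strand also ends within 500 bp of the summit. The partners were D2030.12 for prg-1, C16C10.4 for hrde-1, dhp-1 for wago-1, scpl-1 for mut-16 and mip-2 for rde-12. Among all 182 coding genes with such a 3′ summit, 131 had a converging partner. Whether or not they had a peak, 47.8% of members and 28.8% of coding genes had a converging 3′ end within 500 bp of their own. No noncoding gene lay within 250 bp of any of the 6 summits. Of all 1318 nuclear optimal summits, 48.2% were called to a coding 5′ end at 500 bp, and 10.8% met the 3′ rule at 150 bp. With 500 bp for the 3′ end as well, 22.2% met it. Both 3′ shares leave out summits within 500 bp of a coding 5′ end.

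In the whole lists the same rule gave 18 members in the pooled list (39.1%, background 11.5%), 16 in replicate 3 (34.8%, background 11.3%) and 14 in replicate 4 (30.4%, background 8.88%). Joining both ends, 10 of 46 members (21.7%) had an optimal summit at the 5′ or the 3′ end, against 4.54% of coding genes, and 36 had none. Expression was not measured in these files, and its part in the binding of these genes was not tested.

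A wider list of small RNA pathway and germ granule genes, none of them among the 46, gave 62 matched genes. Of these, 8 were bound at the 5′ end in the optimal list (12.9%, beside the 3.87% of all coding genes). They were pid-5, of the piRNA pathway, with a signal of 234 at rank 90, xrn-2, an exonuclease gene, with 176 at rank 190, the P granule gene pgl-3 with 126 at rank 450, gtsf-1, a partner of RRF-3, with 118 at rank 532, eri-5, also of the RRF-3 complex, with 114 at rank 575, simr-1, which links piRNAs to secondary small RNAs, with 94.4 at rank 833, the helicase gene znfx-1 with 91.1 at rank 901, and pash-1, of the miRNA-processing Microprocessor, with 75.0 at rank 1304. Of the 8 summits, 7 lay upstream, and that of xrn-2 lay 47 bp downstream. pid-5, gtsf-1, xrn-2 and pgl-3 were bound in the optimal list and in the strongest 1339 of each replicate (6.45%, background 2.52%). In the single replicates, read to 1339 peaks, 9 genes of the wider list were bound in each (14.5%), but not the same ones. The background was 3.81% in replicate 3 and 3.95% in replicate 4. Replicate 3 lacked simr-1 and added attf-6 and cgh-1. Replicate 4 lacked eri-5 (rank 20015), pash-1 (rank 6213) and znfx-1 (rank 1594), and added ppw-1, tofu-1, nyn-1 and heri-1. A summit at the 3′ end was found at 3, deps-1, glh-1 and mip-2 (4.84%, background 0.911%), and the mip-2 peak is that of rde-12. The Argonaute genes of this list, ppw-1, ppw-2, wago-5, wago-10, sago-1, sago-2 and vsra-1, had no optimal summit by the 3′ rule. Read to 1339 peaks, replicate 3 called the same 3 genes as the optimal list (background 0.916%). Replicate 4 called 4, ppw-2, glh-1, mip-2 and cgh-1 (6.45%, background 0.811%). Of the Argonaute genes, ppw-2, wago-10 and sago-1 met the rule in the whole pooled list (background 11.5%).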

How the data were processed

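OEF-1 ChIP-seq peak lists of 2 samples in 1 group were analysed. Per the README texts deposited with the files, each replicate's candidate list was made from its own alignment and a control shared by both, the pooled list from both alignments, and the optimal list from these by the irreproducible discovery rate (IDR). Each peak has a signal, deposited by the authors on a scale not stated, used only to rank peaks within 1 list. The −log10 q-value that the authors deposited with each peak was not used. Which aligner and peak caller were run, in which version, and how deep each library was is not given in the sources used here, and no interval that needs depth is printed. The control and the ce10 lists were not analysed here.

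Summits on ce11 were set against coding genes of the Ensembl 115 annotation of WBcel235, the same assembly, with Python 3.11.15. A gene was bound when a summit lay within 500 bp of its 5′ end. The 21 mitochondrial peaks entered no count of genes. The optimal list held 1339 peaks, equal to the strongest 1339 of the pooled list, and each replicate was read to the same length. The 46 members, the wider list and their classes were chosen with earlier results of these data known, so counts are given beside all coding genes and no test was made. Of 69 names in the wider list, 7 matched no symbol. Every member is accounted for, those bound are described in full, and up to 10 bound genes of the wider list are named by signal. The distance calculation was checked on simulated summits placed within 500 bp of known 5′ ends. This check cannot show whether a real summit belongs to the gene it was assigned to. The 3′ ends, the strongest 3000 pooled peaks and the word GCGCTC were added after seeing the data. The 2 samples are labelled biological replicates, with nothing more on their separate origin.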

Additional observations from a re-analysis of the deposited data

How the results depend on the processing

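Of 114 counts under other settings, 85 stayed within 1.5 times the count reported and 29 did not. Counts of 0 that stayed 0 are among the 85. These were the tailing and double-stranded RNA transport classes under every setting. Double-stranded RNA processing also stayed at 0, except with the strongest 3000 pooled peaks. The class counts are taken from the same members, so the 85 does not measure how stable the results are. The 5 members bound became 2 at 200 bp and 2 with each summit given to its nearest 5′ end (prde-1 and tofu-6 in both), 1 with the 500 strongest optimal peaks (hrde-1), and 10 with the strongest 3000 pooled peaks, an alternative chosen after seeing the data. Single replicates gave 4 to 5. By class, the 2 piRNA factors became 0 with the 500 strongest. The 1 Argonaute became 0 at 200 bp and with the nearest 5′ end, and 2 at 1000 bp (alg-5 added), with any transcript (csr-1 added) and with 3000 peaks (wago-4 added), while single replicates gave 1 to 2. The 1 mutator gene became 0 at 200 bp, with the 500 strongest and with the nearest 5′ end, and 2 with 3000 peaks (rde-8 added). The 1 nuclear RNAi gene became 0 at 200 bp and with the nearest 5′ end, and 2 at 1000 bp and with 3000 peaks (nrde-2 added in both). The 1 polymerase module gene, ekl-1, became 0 at 200 bp, with the 500 strongest, with the nearest 5′ end and in either replicate alone (range 0 to 0). The 0 genes of double-stranded RNA processing became 2 with 3000 peaks (eri-1 and rde-10). The 8 genes of the wider list became 3 at 200 bp, 3 with the 500 strongest and 21 with 3000 peaks. The 6 members with a 3′ summit became 3 to 5 in single replicates, 3 being replicate 4 alone. They stayed 6 at 500 bp and with any summit within 150 bp, but the background rose from 182 coding genes to 399 and 310. The start codon, the peak interval in place of the summit, and leaving out summits at structural RNA genes left the 5 members bound as they were. The cause of these differences was not tested. No paired analysis was possible because there was 1 group and no test. Depth is unknown, so a member without a summit was not detected in these lists, which does not show that OEF-1 is absent from it.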

Other observations

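The median distance from a member's 5′ end to the nearest optimal summit was 18333 bp, against 33545 bp for coding genes, and 9 members (19.6%) lay within 2000 bp of one, against 7.96%. The GC content of the promoter, from 250 bases before to 50 after the 5′ end, had a median of 33.2% over the members (27.9% to 47.2%), 34.2% over the bound ones and 34.2% over all coding genes.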
